A study of Mus musculus with 6 samples.

Results

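The JAK-STAT core and its feedback genes were examined in LSKs, the fraction of bone marrow that lacks lineage markers, carries Sca-1 and c-Kit on its surface and holds the hematopoietic stem and progenitor cells. A total of 10 genes were taken by symbol from the 55487 genes of the deposited RNA-seq table. They were the kinases Jak1 and Jak2, the transcription factors Stat3, Stat5a and Stat5b, the feedback inhibitors Cish, Socs1, Socs2 and Socs3, and the STAT target kinase Pim1. The cells came from 3 Tespa1+/+ and 3 Tespa1-/- libraries, and all mice had been irradiated. Tespa1+/+ mice were wild type littermates on C57BL/6. Tespa1-/- mice were B6.129S-Tespa1tm1Smoc animals backcrossed to C57BL/6, and which exons they lack was not stated. Per the methods of the study, all mice were males aged 8 to 10 weeks, total body irradiation was given at 5 Gy, and RNA was taken at day 13. Unirradiated LSKs were not analysed here, so the response to irradiation itself cannot be read from these libraries. Whether a library was 1 mouse or a pool was not stated, so p-values measure the spread between these samples, which may be technical.

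In this pathway a cytokine brings its receptor chains together, the receptor-bound JAK kinases phosphorylate the receptor and each other, and STAT proteins dock, become phosphorylated and enter the nucleus. Cish, Socs1, Socs2 and Socs3 are switched on by active STATs, and their proteins bind JAKs or receptors and dampen the signal. In hematopoietic stem cells, STAT5 is required for stem cell maintenance. Cish and Socs2 are widely used readouts of STAT5, whereas Socs3 is a readout of STAT3 and of cytokines that signal through gp130. Transcript levels were measured here, and the phosphorylation of JAK or STAT proteins was not.

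The promoters of feedback genes carry sites that read STAT activity, and those of Cish and Socs3 are shown because they were the promoter windows of these genes that held the core STAT motif. RefSeq windows on GRCm38.p6, reaching from 250 bases before the annotated start to 50 bases after it, were matched for 9 of the 10 genes (12 windows, since some genes have more than 1 start). The motif searched was TTC, any 3 bases, then GAA, which reads the same on both strands. It was found in 8.3% of the 32851 windows of the table. The sequences below are printed from 5′ to 3′ on the strand of the gene and stop 30 bases after the start, with the motif in capitals. The Cish window lies at chr9:107296409-107296688 on the plus strand and the Socs3 window at chr11:117969337-117969616 on the minus strand.
Cish: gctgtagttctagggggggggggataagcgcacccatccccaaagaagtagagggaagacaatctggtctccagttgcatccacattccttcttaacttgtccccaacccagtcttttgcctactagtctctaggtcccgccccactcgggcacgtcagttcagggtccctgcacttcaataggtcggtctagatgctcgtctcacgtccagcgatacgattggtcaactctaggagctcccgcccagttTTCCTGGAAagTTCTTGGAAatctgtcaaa
Socs3: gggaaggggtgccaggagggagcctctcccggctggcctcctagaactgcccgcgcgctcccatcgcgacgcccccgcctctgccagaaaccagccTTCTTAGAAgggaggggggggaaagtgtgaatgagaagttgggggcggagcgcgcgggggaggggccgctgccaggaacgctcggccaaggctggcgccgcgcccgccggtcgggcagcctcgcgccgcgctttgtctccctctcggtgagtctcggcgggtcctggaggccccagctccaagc
Cish held 2 motifs, TTCCTGGAA from base 251 and TTCTTGGAA from base 262 of its window, so both lay at the annotated start. Socs3 held 1 motif, TTCTTAGAA, from base 97. The windows of Jak1, Jak2, Pim1, Socs1, Stat3, Stat5a and Stat5b held no match, which says only that these letters were not in these windows. No window was matched for Socs2. A match is a description of the sequence, and binding was not measured.

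Libraries held between 12856630 and 30576981 counts, and 15332 genes passed the filter on low counts and were tested. Levels are given as CPM, counts scaled to the same nominal library total with TMM factors, which are chosen so that most genes are equal between libraries. Fold changes are Tespa1-/- over Tespa1+/+ with standard errors (SE), from edgeR's quasi-likelihood test. Adjusted p-values are Benjamini-Hochberg values over all 15332 genes, and a gene is called where its adjusted p is under 0.05 and its fold is over 1.5. Tespa1, examined as a check of the labels, stood at 34.4 ± 1.62 CPM in wild type and 14.6 ± 0.634 CPM in Tespa1-/- LSKs (SD, n = 3 each), and the groups did not overlap (log2 fold change -1.23). The summed level of 9 LSK markers ranged from 1268 to 1297 CPM in Tespa1+/+ and from 729 to 748 CPM in Tespa1-/- libraries, and 7 of the 9 were called lower. Of all genes tested, 19.2% were called lower and 14.0% higher, and these shares apply to the lists below too. Kit was among the 7 (333 ± 9.79 against 169.6 ± 6.1 CPM, SD, n = 3 each). With the trend with gene length described below removed, Kit (-0.58) and Cd34 (-0.48) were not called. Ly6a, which encodes Sca-1, was not called (50.5 ± 11.6 against 40.4 ± 3.36 CPM, adjusted p = 0.109 by edgeR). With the trend removed, Ly6a was called lower (-0.67). The summed level of 10 neutrophil markers ranged from 26.3 to 29.7 CPM and from 481 to 507 CPM, with 9 called higher. B cell markers summed to between 50.1 and 55.0 CPM and between 37.6 and 41.2 CPM, with 4 called lower and 0 higher. Ms4a1 had 2, 0 and 3 counts in Tespa1+/+ and none in Tespa1-/- libraries, and the mean of Cd79b was higher in Tespa1-/- (22.7 against 27.3 CPM). T cell markers summed to between 15.4 and 16.8 CPM and between 8.13 and 9.10 CPM, with 3 tested and 3 called lower. Cd3e had 8, 7 and 4 counts in Tespa1+/+ and none in Tespa1-/- libraries. Cd3d had 4, 4 and 0 against 1, 2 and 4 counts, and Cd3g had 0, 5 and 0 against 4, 3 and 0. These CD3 genes were too low to be tested, and most of the sum was Lck (12.8 against 6.96 CPM). Erythroid markers summed to between 27.8 and 30.0 CPM and between 35.6 and 38.3 CPM, with 2 called higher and 2 lower. Megakaryocyte markers summed to between 106 and 113 CPM and between 66.6 and 71.2 CPM, with 2 called lower and 0 higher. Monocyte markers summed to between 1069.7 and 1097 CPM and between 1133 and 1191 CPM, with 1 called higher (Ly6c2, 251 to 462 CPM) and 2 lower (Csf1r and Cx3cr1). The sums of these lists differed between the genotypes, higher in Tespa1-/- for the neutrophil, erythroid and monocyte lists and lower for the others. Their part in the results below was not tested. In bulk RNA, fewer cells of a type and less RNA per cell cannot be told apart.

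At an adjusted p under 0.05, 7 of the 10 genes were lower in Tespa1-/- LSKs and 0 were higher, although Stat3 passed as higher once the trend with gene length described below was removed. Pim1 was lower at an unadjusted p of 0.043 by edgeR's quasi-likelihood test, but its adjusted p did not pass. Of all genes tested, 31.8% were lower and 31.5% higher at an adjusted p under 0.05. With the fold added, 4 of the 10 were called lower, namely Socs2, Cish, Jak2 and Stat5b, and 0 were called higher. The background was 19.2% of genes called lower and 14.0% called higher. DESeq2 and limma-trend (in which Socs1 and Socs2 were not tested) also called 0 of these genes higher. Of all genes, DESeq2 called 10.2% higher, and limma-trend called 8.42% with log2(FPKM + 1) and 10.7% with log2(FPKM + 0.1). The groups did not overlap for 7 of the 10 genes, against 69.1% of all genes tested, so a lack of overlap was not particular to these genes. Their median log2 fold change was -0.41, and that of all genes tested was 0.00. The genome-wide background is therefore large, and the genes are described by their own sizes of change.

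**Figure D1:**
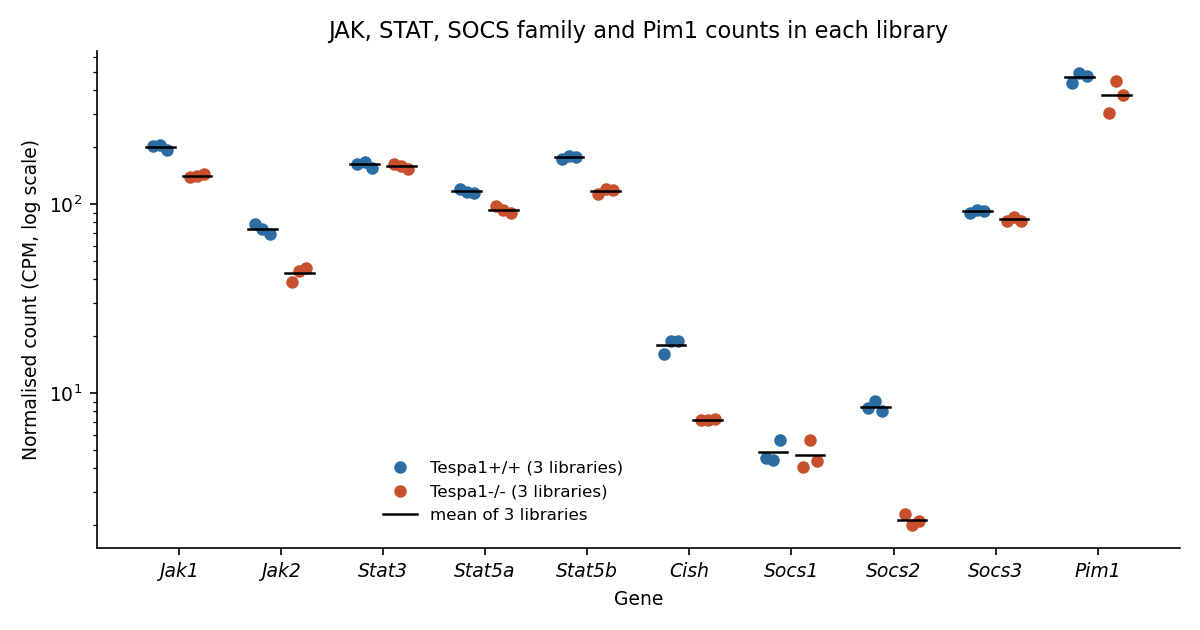
Normalised counts (CPM, log axis) of the 10 genes in each library, with 3 Tespa1+/+ libraries in blue, 3 Tespa1-/- libraries in orange and the group mean as a line. The widest gaps are those of Socs2 (8.49 against 2.13 CPM) and Cish (18.0 against 7.19 CPM), whereas the points of Stat3, Socs1 and Pim1 overlap.

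The 2 receptor-bound kinases were both lower. Positions here and below are on GRCm38, as the deposited table gives them, and all 10 genes are annotated as protein coding. Jak2 (ENSMUSG00000024789, chr19:29251828-29313080, plus strand), the kinase used by the receptors for erythropoietin and IL-3, had 1429, 2323 and 1025 counts in the Tespa1+/+ libraries (78.7, 73.6 and 69.1 CPM) and 663, 645 and 566 in the Tespa1-/- libraries (38.9, 44.4 and 45.6 CPM). Every Tespa1-/- library lay below every Tespa1+/+ library. Its level fell to 58.3% of the Tespa1+/+ mean (73.8 ± 4.77 against 43.0 ± 3.58 CPM, SD, n = 3 here and below), which is -0.78 on the log2 scale (SE 0.08, adjusted p = 0.000101 by edgeR's quasi-likelihood test). Jak1 (ENSMUSG00000028530, chr4:101152367-101265282, minus strand), which serves gp130, interferon and common gamma chain receptors, had 3695, 6455 and 2853 counts in Tespa1+/+ (203, 204 and 192 CPM) and 2358, 2052 and 1796 in Tespa1-/- libraries (138, 141 and 145 CPM). The groups were again separate. The level of Jak1 fell to 70.7% (200.1 ± 6.65 against 142 ± 3.2 CPM), with a log2 fold change of -0.50 (SE 0.04, adjusted p = 2.71e-05 by edgeR), and its fold of 1.41 stayed under the 1.5 that a call needs.

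The 3 STAT genes lie side by side on chromosome 11 and differed in size of change. Stat5b (ENSMUSG00000020919, chr11:100780731-100850724, minus strand), which transmits growth hormone and many cytokine signals, had 3138, 5698 and 2640 counts in Tespa1+/+ (173, 180.4 and 178 CPM) and 1921, 1742 and 1464 in Tespa1-/- libraries (113, 120.0 and 118 CPM). There was no overlap, and the spread within each group was small beside the gap. Its level fell to 66.0% (177 ± 3.93 against 117 ± 3.73 CPM), with a log2 fold change of -0.60 (SE 0.04, adjusted p = 1.2e-05 by edgeR). The fold of 1.51 was just over the limit, so the call of Stat5b was lost without Tespa1+/+ replicate 2 (-0.58), Tespa1+/+ replicate 3 (-0.58) or Tespa1-/- replicate 1 (-0.57), and the 10 genes then held 3 calls, but its adjusted p stayed at or under 0.000163 in each of these.

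Stat5a (ENSMUSG00000004043, chr11:100859351-100885169, plus strand), the close paralog of Stat5b, had 2175, 3658 and 1698 counts in Tespa1+/+ (119.7, 116 and 115 CPM) and 1657, 1347 and 1107 in Tespa1-/- libraries (97.3, 92.8 and 89.3 CPM). Its groups were separate but closer than those of Stat5b. The level fell to 79.8% (117 ± 2.71 against 93.1 ± 4.02 CPM), with a log2 fold change of -0.33 (SE 0.04, adjusted p = 0.000488 by edgeR), but it did not pass once the trend with gene length described below was removed (-0.04, adjusted p = 0.426). Of the 50-base windows of its transcripts, 8.21% were identical to windows of Stat5b, as were 11.0% of those of Stat5b to Stat5a, so some reads of these genes could have been exchanged in counting.

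Stat3 (ENSMUSG00000004040, chr11:100885098-100939540, minus strand), the main STAT of gp130 and G-CSF signalling, had 2971, 5288 and 2313 counts in Tespa1+/+ (164, 167 and 156 CPM) and 2776, 2316 and 1894 in Tespa1-/- libraries (163, 159.5 and 153 CPM). The groups overlapped. The means were 162 ± 5.82 and 158 ± 5.21 CPM, and the log2 fold change was -0.04 with a 95% confidence interval from -0.13 to 0.06 (adjusted p = 0.481 by edgeR). Stat3 and Stat5a overlap by 72 exonic bases on opposite strands, which is 0.756% of the exon length of Stat3.

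The feedback inhibitors split into a pair with large falls and a pair with small differences. Cish (ENSMUSG00000032578, chr9:107296026-107302784, plus strand), the first inhibitor of the family to be found and a direct STAT5 target, had 294, 596 and 279 counts in Tespa1+/+ (16.2, 18.9 and 18.8 CPM) and 122, 104 and 90 in Tespa1-/- libraries (7.16, 7.16 and 7.26 CPM). The highest Tespa1-/- library was under every Tespa1+/+ library by a wide margin. The level fell to 40.1% (18.0 ± 1.54 against 7.19 ± 0.0548 CPM), with a log2 fold change of -1.32 (SE 0.09, adjusted p = 1.99e-05 by edgeR). The Tespa1-/- libraries varied by 0.761% of their mean, which is less than the 9.82% that counting error alone gives at these counts, so this SD understates the error. Exons of Cish overlap those of Gm17040 and Gm17041 on the other strand over 740 bases (11.5% of its exon length), and whether counting used the strand was not stated.

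Socs2 (ENSMUSG00000020027, chr10:95385362-95417180, minus strand), best known as a brake on growth hormone signalling, had 151, 288 and 119 counts in Tespa1+/+ (8.31, 9.12 and 8.03 CPM) and 39, 29 and 26 in Tespa1-/- libraries (2.29, 2.0 and 2.10 CPM). All 3 Tespa1-/- libraries were far below the lowest Tespa1+/+ library. Its level fell to 25.1% (8.49 ± 0.567 against 2.13 ± 0.149 CPM), with a log2 fold change of -1.99 (SE 0.12, adjusted p = 9.24e-06 by edgeR), a 3.98-fold lower level. Only 2.18% of all genes tested had a lower log2 fold change than Socs2, and 6.55% had a lower one than Cish. For Jak2 this share was 15.2%, for Stat5b 20.8% and for Jak1 24.5%. Socs2 rests on few reads in Tespa1-/- LSKs, where counting error is 18.1% per library, and 4.58% of its 50-base windows also occur in other genes, mainly Gm9847.

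Socs3 (ENSMUSG00000053113, chr11:117966079-117970047, minus strand), the inhibitor that binds gp130 and the G-CSF receptor, had 1638, 2940 and 1370 counts in Tespa1+/+ (90.2, 93.1 and 92.4 CPM) and 1391, 1247 and 1007 in Tespa1-/- libraries (81.7, 85.9 and 81.2 CPM). The groups did not overlap but were close. The level fell to 90.2% (91.9 ± 1.53 against 82.9 ± 2.58 CPM), with a log2 fold change of -0.15 (SE 0.04, adjusted p = 0.0128 by edgeR). The adjusted p was between 0.0526 and 0.0594 when Tespa1+/+ replicate 2, Tespa1+/+ replicate 3, Tespa1-/- replicate 1 or Tespa1-/- replicate 3 was left out.

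Socs1 (ENSMUSG00000038037, chr16:10782240-10785536, minus strand), which blocks JAK kinases directly and is best known as the brake on interferon signalling, had 82, 140 and 84 counts in Tespa1+/+ (4.51, 4.43 and 5.67 CPM) and 69, 82 and 54 in Tespa1-/- libraries (4.05, 5.65 and 4.35 CPM). The highest library of each group stood at nearly the same level, and the groups overlapped. The log2 fold change was -0.05 with a 95% confidence interval from -0.44 to 0.35 (adjusted p = 0.831 by edgeR). At 54 to 140 counts per library, a difference inside this interval was not detectable.

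Pim1 (ENSMUSG00000024014, chr17:29490753-29496112, plus strand), a survival kinase and a target of STAT3 and STAT5, was the most abundant of the 10 genes. It had 7946, 15527 and 7080 counts in Tespa1+/+ (437, 492 and 478 CPM) and 5139, 6501 and 4672 in Tespa1-/- libraries (302, 448 and 377 CPM). Tespa1-/- replicate 2 lay within the range of the Tespa1+/+ libraries, and the other Tespa1-/- libraries lay below it. The means were 469 ± 28.1 and 375 ± 73.1 CPM, the Tespa1-/- libraries varied by 19.5% of their mean where counting error was 1.37%, and the log2 fold change was -0.32 (SE 0.13, adjusted p = 0.0656 by edgeR). Without Tespa1-/- replicate 2 it was -0.46 with an adjusted p of 0.0084 by edgeR and without Tespa1-/- replicate 1 it was -0.18 with an adjusted p of 0.112. With all 6 libraries, Pim1 passed under 6 of the alternatives run, with adjusted p-values from 0.0166 (edgeR with a replicate block) to 0.0398 (edgeR with a correction for exon length). Exons of Pim1 overlap those of Gm26885 on the other strand over 488 bases (14.5% of its exon length).

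Levels of different genes were compared per length, as CPM per kilobase of union exon length (all exons of a gene in GENCODE M21 merged). In Tespa1+/+ LSKs, Pim1 stood first at 139 ± 8.37 CPM per kb, followed by Stat5b at 32.0 ± 0.710, Socs3 at 31.8 ± 0.528, Jak1 at 27.7 ± 0.919, Stat3 at 17.0 ± 0.611, Stat5a at 16.4 ± 0.380 and Jak2 at 14.7 ± 0.949 CPM per kb (SD, n = 3 each). Cish at 2.80 ± 0.239, Socs1 at 1.68 ± 0.237 and Socs2 at 0.890 ± 0.0595 CPM per kb closed the order. The ranges of Stat5b and Socs3 overlapped, as did those of Stat3 and Stat5a, and no other neighbours did. In Tespa1-/- LSKs, no neighbours overlapped. Socs3 (28.7 ± 0.894 CPM per kb) there stood above Stat5b (21.1 ± 0.674), and Socs1 (1.61 ± 0.292) above Cish (1.12 ± 0.00853). The JAK and STAT genes of Tespa1+/+ LSKs thus lay between 14.7 and 32.0 CPM per kb, whereas Cish, Socs1 and Socs2 were far below them in both groups. The order depends on the length used. With the longer gene lengths that the deposited counts and FPKM imply, the Tespa1+/+ level of Pim1 was 61.2 CPM per kb, and Jak2 (12.2), Stat5a (11.7) and Stat3 (10.3) stood in the reverse order, whereas the other ranks were as above.

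Related genes were then set against each other within each library, which removes the scaling between libraries. The ratio of Stat5b to Stat5a in CPM per kb was 1.86, 2.01 and 2.0 in the wild type and 1.49, 1.67 and 1.70 in the knockout libraries, a log2 difference of -0.27 (SE 0.07). The ratio of Jak2 to Jak1 was 0.556, 0.517 and 0.516 and then 0.404, 0.452 and 0.453, a log2 difference of -0.28 (SE 0.06). The ratio of Cish to Socs2 was 2.89, 3.07 and 3.48 and then 4.64, 5.32 and 5.14, a log2 difference of 0.68 (SE 0.10). In these 3 pairs the groups did not overlap, so Stat5b was lower relative to Stat5a, Jak2 relative to Jak1 and Socs2 relative to Cish in every Tespa1-/- library. The trend of fold changes with gene length, described below, was not removed from these ratios. On the log2 scale it stood at -0.23 for Cish and -0.44 for Socs2. For Stat5b and Stat5a it stood at -0.14 and -0.29, and for Jak2 and Jak1 at -0.09 and -0.29. The ratio of Socs3 to Socs1 overlapped, at 20.1, 21.1 and 16.4 against 20.3, 15.3 and 18.8, with a log2 difference of -0.09 (SE 0.16). In exact two-sided permutation tests over the samples, p was 0.1 for the first 3 pairs, which is the smallest that 3 against 3 allows, and 0.6 for the last (0.133 and 0.6 after Benjamini-Hochberg adjustment over 4 ratios), so no ratio could pass 0.05 in this design.

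**Figure D2:**
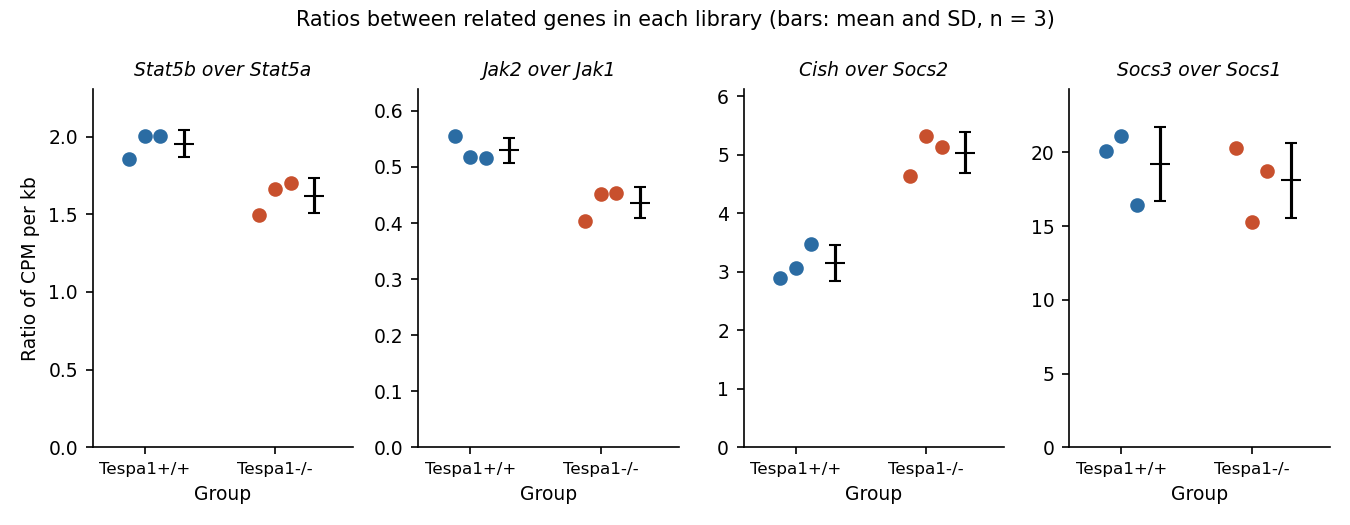
Ratios of CPM per kb between 4 pairs of related genes in each library (points, blue Tespa1+/+ and orange Tespa1-/-), with the mean and SD of 3 libraries as bars. The groups are separate for Stat5b over Stat5a, Jak2 over Jak1 and Cish over Socs2, and overlap for Socs3 over Socs1.

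Fold changes fell with exon length across the transcriptome. Over 10100 genes with a mean above 8 CPM, longer genes had lower fold changes, with a Spearman's rho of -0.62 (genes are not independent replicates). The 10 genes spanned lengths from 2891 bases (Socs3) to 9531 bases (Socs2). The trend stood at 0.20 on the log2 scale at the length of Socs3 and of Socs1 (2908 bases), and at -0.44 at that of Socs2 and of Stat3 (9527 bases). Socs2 and Stat3 thus had nearly the same exon length and log2 fold changes of -1.99 and -0.04.

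**Figure D3:**
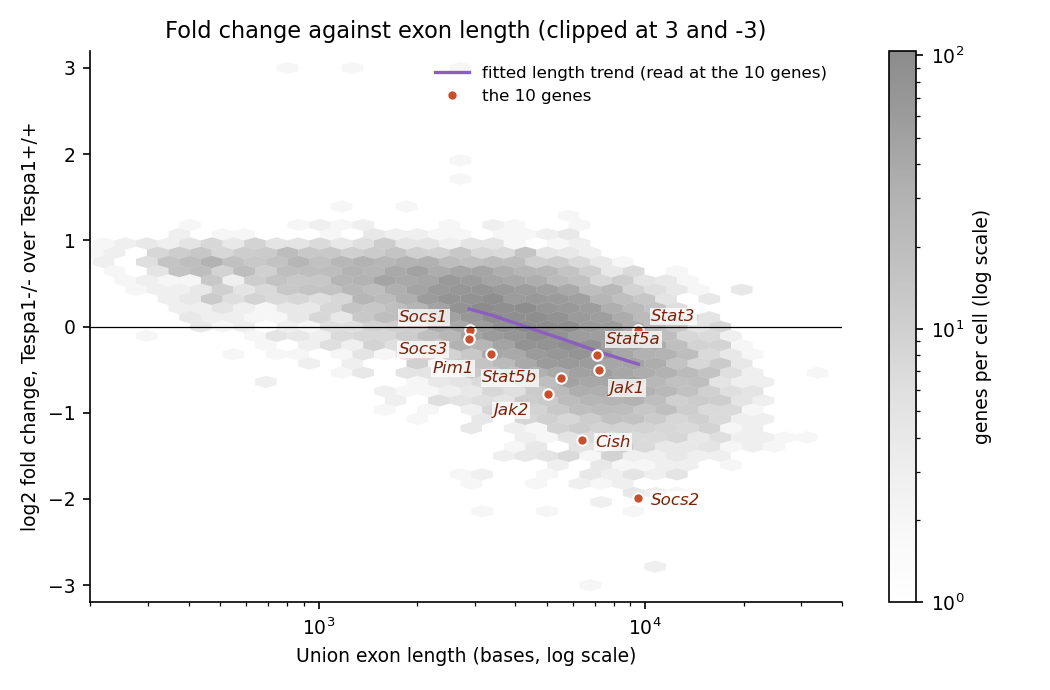
log2 fold change against union exon length (bases, log axis) for 10100 genes, shaded by the number of genes per cell, with the 10 genes as orange points and the fitted length trend as a line between their lengths. Stat3 lies above the trend and the other 9 genes lie below it.

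When this trend was removed from each library by a loess fit, the share of genes called fell to 15.8% lower and 7.54% higher, and rho became -0.09. Of the 10 genes, 3 were then called lower, namely Socs2 (-1.58, adjusted p = 4.65e-05 by edgeR), Cish (-1.09, adjusted p = 7.99e-05) and Jak2 (-0.67, adjusted p = 0.000301), and 0 were called higher. Stat5b kept an adjusted p of 7.72e-05 by edgeR at -0.44 and Jak1 one of 0.003 at -0.21, both with a fold under 1.5. Stat5a no longer passed (-0.04, adjusted p = 0.426 by edgeR). Stat3 changed sign and passed, at 0.38 (adjusted p = 0.000228 by edgeR), so no direction is given for it. Socs3 (-0.27, adjusted p = 0.000886 by edgeR) and Pim1 (-0.39, adjusted p = 0.0398) passed, and Socs1 did not (-0.17, adjusted p = 0.434). The median of the 10 genes was -0.33 after the correction. With the gene lengths that the deposited counts and FPKM imply in place of exon lengths, Stat5b stayed called (-0.60, adjusted p = 1.93e-05 by edgeR). Pim1 then did not pass (-0.21, adjusted p = 0.205 by edgeR). The source of the trend was not tested.

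**Figure D4:**
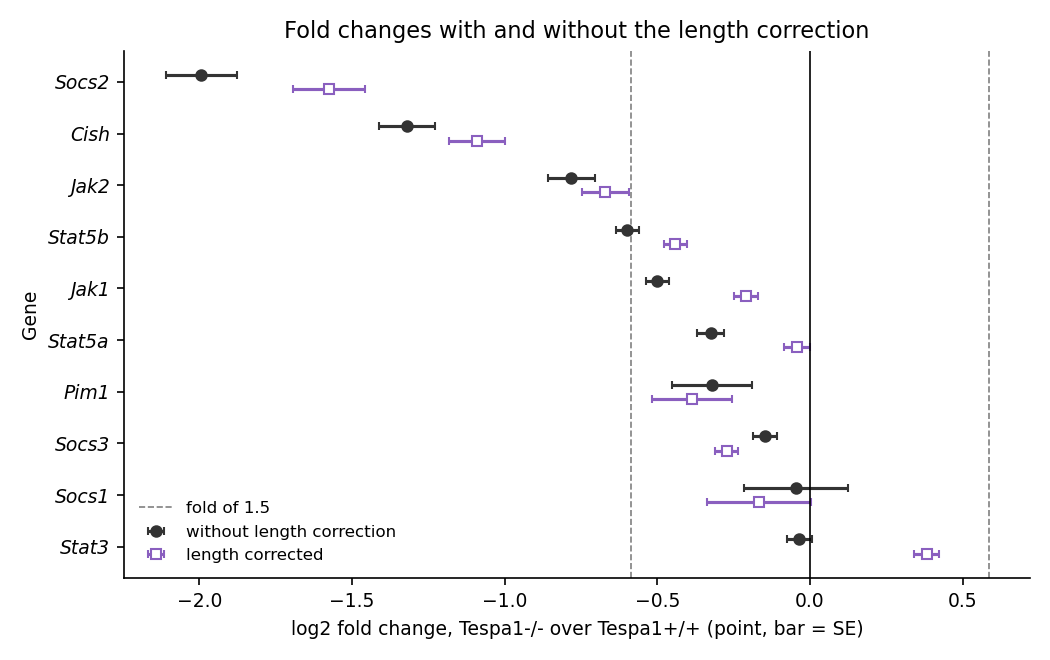
log2 fold changes (Tespa1-/- over Tespa1+/+, bars are SE) of the 10 genes without (filled circles) and with (open squares) the length correction, with dashed lines at a fold of 1.5. Socs2, Cish and Jak2 stay beyond the line on the lower side in both, Stat5b crosses to the inner side, and Stat3 moves from -0.04 to 0.38.

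A further 100 genes of the pathway were listed by role, of which 81 were tested. At an adjusted p under 0.05, 43 were lower and 14 higher (31.8% and 31.5% of all genes), and 23 were called lower and 4 higher (19.2% and 14.0% of all genes). The median log2 fold change of the 81 genes was -0.28. After the length correction, 20 were called lower and 5 higher (15.8% and 7.54% of all genes), with a median of -0.16.

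All 6 other JAK and STAT genes fell at an adjusted p under 0.05 (31.8% of all genes did), although Tyk2 stood at 0.04 after the length correction. Of these, 3 were called lower (19.2% of all genes were), and the median was -0.53 (-0.33 after the length correction). Stat2, a STAT of type I interferon signalling, fell from 44.8 ± 2.62 to 24.6 ± 1.85 CPM (log2 fold change -0.86, adjusted p = 5.83e-05 by edgeR). Stat4, the STAT of IL-12, fell from 37.0 ± 1.5 to 21.7 ± 1.54 CPM (-0.77). Stat3 of the 10 genes above was the single JAK or STAT gene of the 11 with overlapping groups. After the length correction Tyk2 was at 0.04 and Stat3 at 0.38, and the other 9 stayed below 0.

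Of 18 other inhibitors (the remaining SOCS genes, phosphatases, PIAS genes and adaptors), 10 fell and 4 rose at an adjusted p under 0.05 (31.8% and 31.5% of all genes). Of the 18, 3 were called lower and 0 higher (19.2% and 14.0% of all genes), and the median was -0.32 (-0.05 after the length correction). Socs5, a SOCS family member, fell from 19.2 ± 0.564 to 10.8 ± 1.40 CPM (-0.84, adjusted p = 0.000311 by edgeR). Usp18, which restrains type I interferon signalling, fell from 22.4 ± 0.833 to 14.3 ± 2.14 CPM (-0.64). Cbl, the ubiquitin ligase that removes activated receptors, fell from 217 ± 12.7 to 105 ± 30.4 CPM (-1.05, adjusted p = 0.00284), but after the length correction it did not pass (-0.51, adjusted p = 0.0601). Without the length correction Cbl had the lowest log2 fold change of the 18, and with it Usp18 had (-0.78). The differences of these genes from Cish and Socs2 were not tested.

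Among 34 receptor chains, 30 were tested, and 15 fell and 5 rose at an adjusted p under 0.05 (31.8% and 31.5% of all genes). Of the 30, 9 were called lower and 1 higher (19.2% and 14.0% of all genes), with a median of -0.12. After the length correction, 7 were called lower and 3 higher (15.8% and 7.54% of all genes). The 4 receptor chains not tested had at most 8 counts in any library. Il6st, which encodes gp130, fell from 67.7 ± 1.48 to 33.8 ± 9.14 CPM (-1.0, and -0.51 with no call after the length correction), and Il27ra fell from 13.9 ± 1.09 to 7.12 ± 0.795 CPM (-0.96). The receptor called higher was Il13ra1 (9, 26 and 18 against 38, 30 and 32 counts, log2 fold change 1.46), named after its values were seen.

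Of 24 cytokines, 9 were tested and 15 were not, with at most 23 counts in any library. At an adjusted p under 0.05, 5 fell and 1 rose (31.8% and 31.5% of all genes), and all of these were called (19.2% and 14.0% of all genes). After the length correction, 5 were called lower and 0 higher (15.8% and 7.54% of all genes). Lif, a gp130 cytokine, fell from 20.6 ± 1.11 to 4.34 ± 0.749 CPM (-2.25, SE 0.13, adjusted p = 7.93e-06 by edgeR). Clcf1, another gp130 cytokine, fell from 14.4 ± 4.28 to 4.68 ± 0.764 CPM (-1.62), and Il12a fell from 16.9 ± 0.533 to 8.84 ± 1.73 CPM (-0.95). Il10 (-1.95) and Il15 (-0.62), called lower, and Tslp (0.89, and 0.56 with no call after the length correction), called higher, were named after their values were seen.

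The 19 other STAT target genes moved in both directions, as did all genes tested. At an adjusted p under 0.05, 7 fell and 4 rose (31.8% and 31.5% of all genes). Of the 19, 3 were called lower and 2 higher (19.2% and 14.0% of all genes), and the median was -0.01. After the length correction, 4 were called lower and 2 higher (15.8% and 7.54% of all genes). Ccnd1, which encodes cyclin D1, fell from 72.6 ± 2.88 to 36.5 ± 3.40 CPM (-0.99, adjusted p = 2.68e-05 by edgeR), Spry1, an inhibitor of receptor tyrosine kinase signalling, fell from 41.3 ± 1.07 to 21.7 ± 1.5 CPM (-0.93), and Irf1, an interferon-induced transcription factor, fell from 50.9 ± 3.10 to 33.7 ± 0.846 CPM (-0.60, and -0.58 with a fold under 1.5 after the length correction). Gadd45g, a stress and growth arrest gene, rose from 14.6 ± 1.18 to 37.5 ± 3.66 CPM (1.36), and Lcn2 rose from 15.8 ± 0.701 to 129 ± 8.64 CPM (3.03). Lcn2 is also 1 of the 10 neutrophil markers, whose summed level rose with it. Without the length correction Ccnd1 had the lowest log2 fold change of the 19, and with it Spry1 had (-1.05), beside -1.09 for Cish and -1.58 for Socs2. The differences between these genes were not tested.

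**Figure D5:**
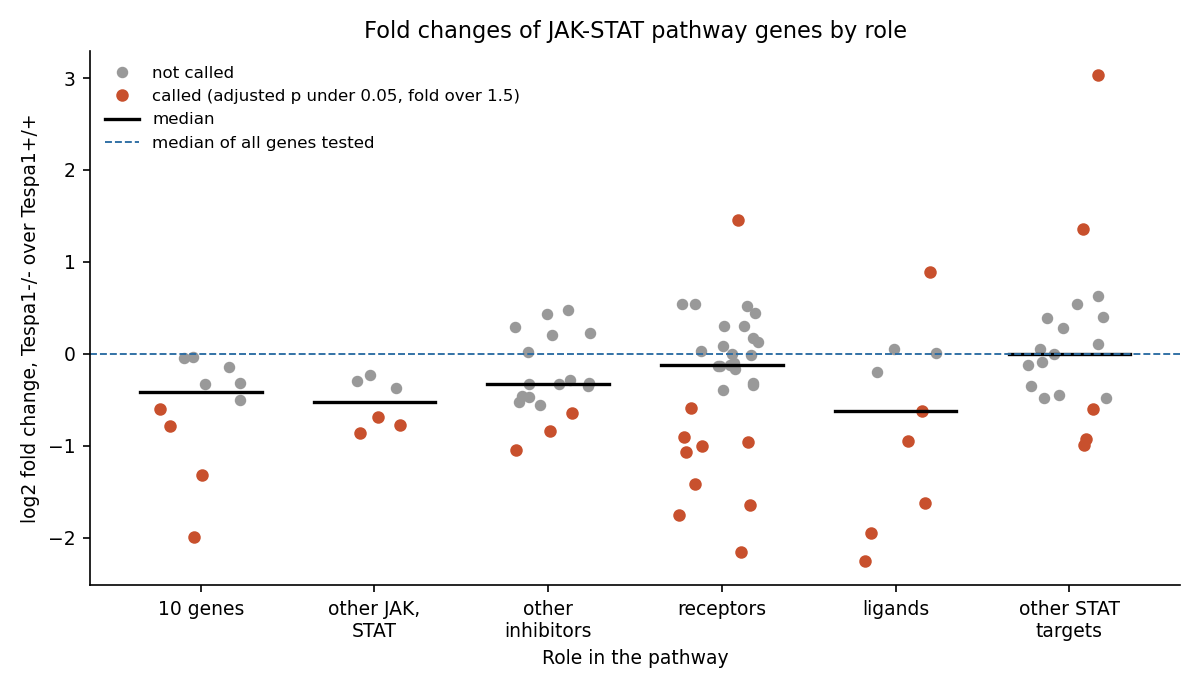
log2 fold changes (Tespa1-/- over Tespa1+/+) of the 10 genes and of the tested pathway genes by role, with called genes in orange, other genes in grey, the median of each list as a black line and the median of all genes tested as a dashed line. The medians are -0.41, -0.53, -0.32, -0.12, -0.62 and -0.01 from left to right, and the points of the STAT targets lie on both sides of 0.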

How the data were processed

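Per the labels, LSK poly-A RNA was sequenced as stranded paired-end libraries on a NovaSeq machine. The submitters' processing notes name CASAVA 1.8, HISAT2, StringTie and edgeR on GRCm38, without roles, and whether counting used the strand is not given in the sources used here. The authors deposited whole-number raw counts and FPKM values per gene (counts scaled by length and library total). Groups and replicate numbers came from the sample titles. Libraries of a group differed by more than sampling noise, which does not show that they came from different mice. All 6 were used.

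Counts were filtered with filterByExpr, scaled with TMM and tested with edgeR 4.0.16 in R 4.3.3 on all 6 samples with no covariates. Intervals of fold changes come from the edgeR standard error, which includes the spread between libraries. Alternatives were RLE factors, total counts, other filters, DESeq2 1.42.0, glmTreat, limma-trend (limma 3.58.1) on log2(FPKM + 1) and log2(FPKM + 0.1) (minimum FPKM 1 in 3 samples), a replicate block, leaving out each replicate, and loess offsets (span 0.5) on exon length or on the length implied by count and FPKM. The centring of these offsets on each library's median was chosen after the data were seen. Exon lengths came from GENCODE M21, in which 55227 of 55487 genes were found. Scripts were tested on simulated data. Members, lists and tests were chosen with earlier results of these data known. From each list, up to 3 genes per direction were named by size of change among called genes without overlap and with a mean count of at least 100. Some genes that this rule names are not reported here.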

Additional observations from a re-analysis of the deposited data

How the results depend on the processing

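Of the log2 fold changes of the 28 genes tracked (the 10 genes, Tespa1 and 17 other pathway genes that the naming rule takes), 18 had the same sign in each alternative that tested the gene and never crossed the adjusted p of 0.05, among them those of Socs2, Cish and Jak2. Socs1 and Socs2 were not tested with log2(FPKM + 1) or log2(FPKM + 0.1), where they did not meet the minimum FPKM. The number of the 10 genes called higher was 0 under each. The number called lower was 4, with 3 under glmTreat, the exon length correction and log2(FPKM + 1) (where 8 genes were tested), 5 with total counts (Jak1 at -0.60) and between 3 and 4 when a replicate was left out. With log2(FPKM + 0.1), where Socs2 was not tested, the 4 were Cish, Jak2, Stat5b and Jak1 (-0.60). Total counts moved the median of all genes to -0.10, and the share of calls that were higher from 42.1% to 29.8%. Pathway genes called higher numbered 2 in place of 4 with log2(FPKM + 1). Stat3 was at 0.38 under both length corrections (adjusted p = 0.000267 and 0.000228 by edgeR), and it passed at -0.14 with total counts, at -0.12 with log2(FPKM + 1) and at -0.13 with log2(FPKM + 0.1). Leaving out a replicate moved Socs1 between -0.20 and 0.0759, and its sign turned without Tespa1+/+ replicate 3 (0.0759), Tespa1-/- replicate 1 (0.0626) and Tespa1-/- replicate 3 (0.01), and moved the log2 ratio of Socs3 to Socs1 between -0.20 and 0.0305. Pim1 passed under 7 alternatives. The labels tie no replicate number to a shared mouse or day, and deviations of same-numbered libraries correlated at 0.0459, 0.0107 and 0.0595. A replicate block left the counts at 0, 4, 4 and 23, and Pim1 alone among the 10 changed side (-0.34, adjusted p = 0.0166 by edgeR), and in exact sign-flip tests paired by number the ratios had p-values of 0.25, 0.25, 0.25 and 1. Over all genes, glmTreat called 1020 higher and 1807 lower, log2(FPKM + 1) 1070 and 1626, log2(FPKM + 0.1) 1365 higher, and the length corrections 1155 and 1264 higher, against 2148 and 2951. With lengths implied by FPKM, an alternative added after the data were seen, the highest level per length among the 10 genes over the lowest was 98.8 in place of 156.6 in Tespa1+/+ and 315 in place of 500.1 in Tespa1-/- LSKs. The ratios are limited by 3 libraries per group.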
